A study of Homo sapiens with 6 samples.

Results

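The SLIT ligands SLIT1, SLIT2 and SLIT3, their receptors ROBO1, ROBO2 and ROBO3, and the receptor adaptors SRGAP1, SRGAP2 and SRGAP3 make up 9 of the 61498 genes measured in 3 untreated human cell lines. The 9 genes were chosen by symbol as a family after ROBO2 had been seen to be much higher in RPMI-8226-R than in RPMI-8226 in these same libraries. Values of ROBO2 in every comparison, and of all 9 genes in that comparison, are therefore a description and carry no test. All 9 symbols matched 1 gene each. All 9 had at least 1 read in some library, and 7 of the 9 passed the filter on low counts that left 20081 genes to be tested.

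The lines were RPMI-8226, a plasma cell myeloma line, RPMI-8226-R, its derivative resistant to the proteasome inhibitor bortezomib, and NCI-BL2171. Each was sequenced as 2 libraries of total RNA after removal of ribosomal RNA, and the labels give B lymphocytes as the cell type of all 3. No library came from treated cells, so the resistant derivative was measured without the drug. The labels do not say whether RPMI-8226-R is 1 clone, how it was derived, or whether a line's 2 libraries started from different cultures. A p-value below thus speaks only for the spread within these library pairs, and that spread could be purely technical.

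SLIT proteins are secreted and bind the immunoglobulin domains of ROBO receptors on the cell surface, with heparan sulfate proteoglycans as co-receptors. The receptors have no enzyme activity of their own and pass the signal through cytoplasmic partners, among them the SRGAP proteins, which switch off small GTPases and bend membranes. The pathway is best known for repelling growing axons from the midline of the nervous system, and in white blood cells it is known to dampen migration towards the chemokine CXCL12, the ligand of CXCR4.

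The labelled cell type was checked against marker genes. All 7 plasma cell markers had reads in both RPMI lines, and their summed level was, in TPM (a level per transcript length, scaled to the library), 3093 to 3231 in the parent and 4443 to 4570 in the derivative. The libraries labelled NCI-BL2171 had no read of TNFRSF17, IRF4, JCHAIN, MZB1, MS4A1 or PAX5, and their 9 erythroid markers summed to 48345 to 50362 TPM, against at most 63.5 TPM in the RPMI-8226 libraries and 187 TPM in those of RPMI-8226-R. They go against their label, and differences from them compare the lines as labelled. Of the 6 neural markers, ELAVL4 and STMN2 had no read in any library. MAP2, SNAP25 and GFAP also had none in RPMI-8226-R, where the whole neural list summed to 13.4 to 13.9 TPM, against 17.4 to 17.6 TPM in RPMI-8226 and 11.2 to 12.4 TPM in the libraries labelled NCI-BL2171. Libraries held 23952370 to 29052199 reads. A gene without a read can still be present below 3 reads in such a total.

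How far reads of related genes can be told apart bears on every value below, so the closest stretches are shown first. In their coding sequences (GENCODE 29, GRCh38), ROBO1 and ROBO2 were identical at 66.0% of 4014 aligned bases. No word of 31 bases was shared between the annotated transcripts of any pair of ROBO genes, of any pair of SLIT genes, or of SRGAP1, SRGAP2 and SRGAP3. The 150-base coding stretch in which ROBO1 and ROBO2 were most alike had 116 identical bases, and the 34 that differed are in capitals. It is spliced from exons between chr3:78746839-78938688 on the minus strand for ROBO1 and between chr3:77098253-77477475 on the plus strand for ROBO2.
ROBO1: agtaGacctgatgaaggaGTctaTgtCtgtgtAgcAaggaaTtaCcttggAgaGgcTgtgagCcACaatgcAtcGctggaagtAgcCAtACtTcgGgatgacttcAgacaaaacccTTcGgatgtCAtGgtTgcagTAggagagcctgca
ROBO2: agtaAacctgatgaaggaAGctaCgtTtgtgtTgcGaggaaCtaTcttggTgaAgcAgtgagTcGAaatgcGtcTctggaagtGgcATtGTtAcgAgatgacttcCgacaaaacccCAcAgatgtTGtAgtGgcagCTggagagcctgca

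SRGAP2 is different, because the human genome holds partial copies of it, SRGAP2B, SRGAP2C and SRGAP2D. Of the 15859 words of 31 bases in SRGAP2 transcripts, 21.7% also occur in SRGAP2B, 20.9% in SRGAP2C and 5.46% in SRGAP2D, and 87.4% of the words of SRGAP2D occur in SRGAP2. The 915 coding bases of the short transcript SRGAP2-201 differed at 5 bases from SRGAP2B and at 5 from SRGAP2C. The 150-base coding stretch with the most differences among the 3 is shown, with the 4 positions at which they are not all alike in capitals. It is spliced from chr1:206392802-206393591 (plus strand), chr1:144905173-144905961 (minus strand) and chr1:121374084-121374872 (plus strand). Reads of the 4 genes can be split by the counting, so their single values are uncertain.
SRGAP2: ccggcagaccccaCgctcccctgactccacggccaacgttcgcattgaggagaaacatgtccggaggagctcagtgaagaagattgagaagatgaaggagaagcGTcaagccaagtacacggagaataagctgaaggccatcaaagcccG
SRGAP2B: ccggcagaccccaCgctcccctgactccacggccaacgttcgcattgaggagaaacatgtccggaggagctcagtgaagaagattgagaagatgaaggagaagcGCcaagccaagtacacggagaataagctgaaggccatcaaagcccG
SRGAP2C: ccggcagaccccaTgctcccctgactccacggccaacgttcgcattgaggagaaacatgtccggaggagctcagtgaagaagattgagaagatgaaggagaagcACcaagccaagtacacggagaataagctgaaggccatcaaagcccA

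ROBO2 and ROBO1 are shown by the sequence before their starts, because the family was chosen for the level of ROBO2 in RPMI-8226-R and ROBO1 lies next to it in the opposite direction. RefSeq (GRCh38.p14) gives each gene an outer and an inner start. The windows run from 250 bases before to 50 bases after the start, and capitals mark the dinucleotide CG, which reads the same on both strands. The outer ROBO2 window held 7 CG, a number reached by 63.2% of the 35116 windows of all genes, while the inner ROBO2 window held 31, reached by 20.7%. For ROBO1 the outer window held 11 CG, reached by 54.7%, and the inner window 15, reached by 48.9%. The bases printed are those before the start: chr3:76310630-76310879 (plus strand) for the outer ROBO2 start, the 37 bases chr3:77039849-77039885 (plus strand) of the inner ROBO2 window that lie before an annotated exon, and chr3:79019460-79019709 (minus strand) for the inner ROBO1 start. The files give 1 value per gene, so reads from the outer and inner starts cannot be told apart.
ROBO2 outer: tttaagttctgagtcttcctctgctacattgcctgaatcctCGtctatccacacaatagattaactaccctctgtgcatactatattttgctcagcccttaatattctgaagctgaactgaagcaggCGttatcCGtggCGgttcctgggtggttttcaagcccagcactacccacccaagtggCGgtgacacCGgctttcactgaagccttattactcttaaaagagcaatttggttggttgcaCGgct
ROBO2 inner: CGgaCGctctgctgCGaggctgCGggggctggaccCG
ROBO1 inner: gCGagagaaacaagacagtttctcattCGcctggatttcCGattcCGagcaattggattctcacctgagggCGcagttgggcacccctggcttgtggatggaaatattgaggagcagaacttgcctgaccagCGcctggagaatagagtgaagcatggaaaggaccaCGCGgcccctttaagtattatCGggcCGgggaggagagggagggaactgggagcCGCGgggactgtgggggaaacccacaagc

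SLIT2 and SLIT3 each carry within them a hairpin gene, MIR218-1 and MIR218-2, for the same microRNA, miR-218-5p. It lies at chr4:20528299-20528319 (plus strand) inside SLIT2 and at chr5:168768211-168768231 (minus strand) inside SLIT3, and its seed (bases 2 to 8) is in capitals.
miR-218-5p: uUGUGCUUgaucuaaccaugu
Both hairpin genes had no read in any library. Of the 15 transcripts listed as lying within or antisense to the 9 genes, 12 were matched and 0 of these had a read. That says little for microRNAs, since only 20 of the 1877 microRNA genes had a read, whereas 2549 of the 5539 genes annotated as antisense had one.

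The ligands were low in every line, and a different ligand had the most reads in each of NCI-BL2171 and RPMI-8226. SLIT2 (ENSG00000145147.20, chromosome 4, 20253260 to 20620561, plus strand), the ligand best known from midline guidance and vessel growth, had 120 and 127 reads in the libraries labelled NCI-BL2171, 0 and 3 in RPMI-8226, and 0 and 0 in RPMI-8226-R. Its level was 1.27 ± 0.0707 TPM (SD, n = 2) in NCI-BL2171 and 0.00600 ± 0.00849 TPM in RPMI-8226. Both NCI-BL2171 libraries were above all 4 others. In such bulk RNA, fewer expressing cells and less RNA per cell cannot be told apart. The log2 fold change of counts was -6.26 ± 0.59 (SE) in RPMI-8226 against NCI-BL2171, with an adjusted p of 5.8e-09 (edgeR quasi-likelihood test with Benjamini-Hochberg adjustment over all tested genes). SLIT2 passed the filter through NCI-BL2171 alone, so its tests here add little to the reads themselves. By counts SLIT2 was 82.5-fold higher in NCI-BL2171 (95% interval 27.9 to 403). Without RPMI-8226 replicate 2, which held all 3 reads, the log2 value was -9.999, and without replicate 1 it was -5.27. Against RPMI-8226-R, where SLIT2 had no read, NCI-BL2171 was at least 44.2-fold higher, taking a floor of 3 reads per library (edgeR adjusted p of 1.3e-09). Intervals and floors here and below cover counting error only.

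SLIT3 (ENSG00000184347.15, chromosome 5, 168661733 to 169301129, minus strand), a ligand of the same family, was highest in RPMI-8226. It had 0 and 0 reads in NCI-BL2171, 23 and 26 in RPMI-8226, and 3 and 1 in RPMI-8226-R. The 3 lines did not overlap, yet the RPMI-8226 level was only 0.200 ± 0.121 TPM. SLIT3 passed the filter through RPMI-8226 alone, so its tests here add little to the reads themselves. SLIT3 counts in RPMI-8226 were at least 8.15-fold those of NCI-BL2171 at the floor (edgeR adjusted p of 1.2e-05). They were 13.1-fold those of RPMI-8226-R by reads (95% interval 4.804 to 49.99), given as a description. RPMI-8226-R itself was at or under the floor, as was NCI-BL2171, so no fold is given between them. The edgeR adjusted p of that pair was 0.0602, and 0.0454 without RPMI-8226-R replicate 2.

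SLIT1 (ENSG00000187122.17, chromosome 10, 96998038 to 97185920, minus strand), in the body mainly a ligand of the nervous system, did not pass the filter. It had 0 and 0 reads in NCI-BL2171, 14 and 0 in RPMI-8226, and 5 and 1 in RPMI-8226-R. The libraries of RPMI-8226 and RPMI-8226-R overlapped, and all reads of RPMI-8226 came from 1 library.

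**Figure D1:**
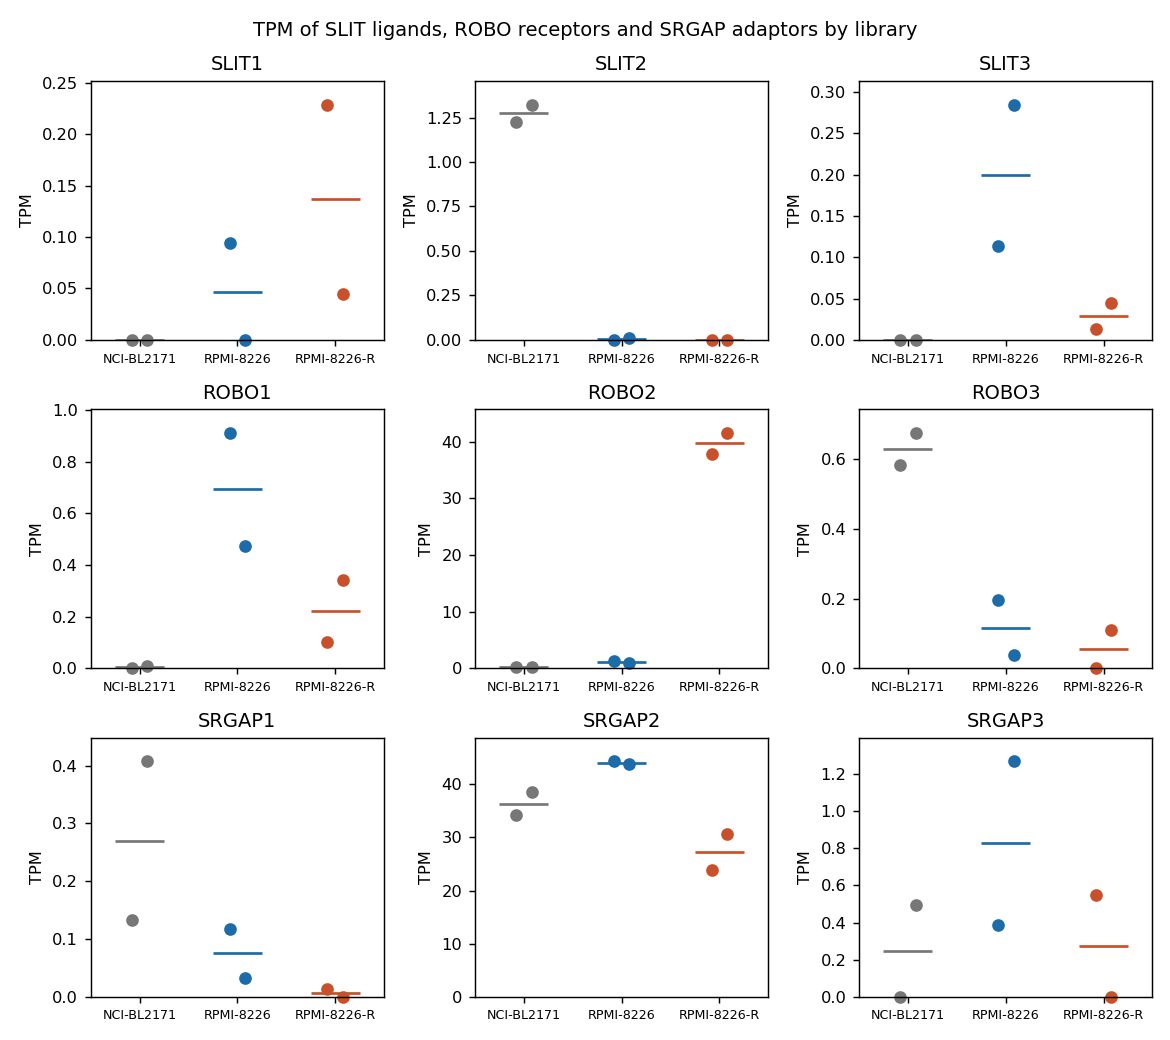
TPM of each of the 9 genes (y axis, a separate linear scale from 0 in each panel) in the 2 libraries of each line (points; horizontal bars are means of 2). ROBO2 in RPMI-8226-R (37.9 and 41.6 TPM) and SRGAP2 in every line are the only values above 2 TPM.

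ROBO2 was the receptor that set RPMI-8226-R apart. ROBO2 (ENSG00000185008.18, chromosome 3, 75906695 to 77649964, plus strand), a SLIT receptor of axons and of the developing kidney, had 22 and 38 reads in NCI-BL2171, 61 and 47 in RPMI-8226, and 3951 and 4423 in RPMI-8226-R. In TPM the same libraries stood at 0.205 and 0.325, at 1.22 and 0.901, and at 37.9 and 41.6. Both RPMI-8226-R libraries were far above all others, and the lines did not overlap.

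As a description, the log2 fold change of ROBO2 counts was 6.18 ± 0.13 (SE) in RPMI-8226-R against RPMI-8226, a 72.7-fold ratio of mean CPM (read counts scaled to library size with TMM). It lay between 6.04 and 6.33 when each library was left out in turn. Against NCI-BL2171 it was 7.02 ± 0.14 for RPMI-8226-R and 0.84 ± 0.25 for RPMI-8226. The difference between RPMI-8226 and NCI-BL2171 moved from 0.84 to 0.43 without NCI-BL2171 replicate 1 and to 1.34 without NCI-BL2171 replicate 2. ROBO2 in RPMI-8226-R ranked 3055 and 2976 by TPM among 19853 protein-coding genes, against 10912 and 11284 in RPMI-8226 and 12133 and 11747 in NCI-BL2171.

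ROBO1 (ENSG00000169855.21, chromosome 3, 78597240 to 79767815, minus strand), the other broadly expressed SLIT receptor, had 0 and 1 reads in NCI-BL2171, 37 and 26 in RPMI-8226, and 18 and 31 in RPMI-8226-R. Both RPMI lines were above NCI-BL2171, and they overlapped each other in normalised counts. In TPM they did not overlap, at 0.911 and 0.475 in RPMI-8226 and 0.103 and 0.342 in RPMI-8226-R. Its log2 fold change of counts was 5.66 ± 0.87 in RPMI-8226 and 5.20 ± 0.90 in RPMI-8226-R against NCI-BL2171 (edgeR adjusted p of 5.3e-06 and 2.4e-05). ROBO1 passed the filter through the RPMI lines alone, so these tests add little to the reads themselves. NCI-BL2171 held 1 read, so the count ratios were 62.9 (95% interval 10.9 to 2522) and 45.7 (7.83 to 1842). Without NCI-BL2171 replicate 2, the library with that read, the log2 values were 8.02 and 7.57, and without replicate 1 they were 4.74 and 4.29. On log2(TPM + 1) the adjusted p for RPMI-8226-R against NCI-BL2171 (limma) was 0.146. ROBO1 did not share the ROBO2 difference between the RPMI lines: its log2 value there was -0.46 ± 0.48 by counts and -2.01 per effective length.

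ROBO3 (ENSG00000154134.15, chromosome 11, 124865386 to 124881470, plus strand), a divergent receptor known for letting axons cross the midline, had its most reads in NCI-BL2171. It had 36 and 35 reads there, 6 and 1 in RPMI-8226, and 0 and 3 in RPMI-8226-R. The NCI-BL2171 libraries were above all others, and the RPMI lines overlapped. The log2 fold change of ROBO3 counts was -3.31 ± 0.70 in RPMI-8226 and -4.56 ± 0.80 in RPMI-8226-R against NCI-BL2171 (edgeR adjusted p of 2.1e-04 and 2.7e-05). ROBO3 passed the filter through NCI-BL2171 alone, so these tests add little to the reads themselves. With an offset for effective length the log2 values were -2.17 and -3.71 (edgeR adjusted p of 0.0445 and 0.00691). By count ratio, ROBO3 was 25.4-fold higher in NCI-BL2171 than in RPMI-8226-R (95% interval 8.34 to 126). The RPMI-8226 value moved to -4.95 without its replicate 1 and -2.58 without its replicate 2. The RPMI-8226-R value moved to -3.65 without its replicate 1 and -8.17 without its replicate 2.

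The receptor mix therefore differed between the lines. Of all reads on ROBO1, ROBO2 and ROBO3, ROBO2 held 37.9% (22 of 58, 95% Wilson interval 26.6 to 50.8) and 51.4% (38 of 74, 40.2 to 62.4) in NCI-BL2171. It held 58.7% (49.0 to 67.6) and 63.5% (52.1 to 73.6) in RPMI-8226. In RPMI-8226-R it held 99.5% (99.3 to 99.7) and 99.2% (98.9 to 99.5). These shares count reads and are not per length. By TPM, ROBO2 was 60.5% and 57.2% of the sum of the 9 genes in RPMI-8226-R, against 0.563% to 2.57% in the 4 other libraries, where SRGAP2 was 92.2% to 94.1%.

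The deposited gene length of ROBO2 differed along with its level. This length is the abundance-weighted length of the transcripts assigned, as the files give it for each library. It was 1726 and 1847 bases in RPMI-8226, 4283 and 4381 in RPMI-8226-R, and 3974 and 4845 in NCI-BL2171. The RPMI-8226 libraries were lowest, and those of the other lines overlapped. The ratio of mean lengths between RPMI-8226-R and RPMI-8226 was 2.42, higher than that of 99.2% of tested genes, whose median log2 length ratio was 0.00. The 13 annotated ROBO2 transcripts run from 522 to 9570 bases. Per length, the ROBO2 ratio was therefore smaller than by counts, 37.5-fold by mean TPM against 72.7-fold by CPM, and its log2 fold change with an offset for effective length was 4.90. Between RPMI-8226 and NCI-BL2171 the per-length ratio was the larger, 3.99-fold by TPM against 1.76-fold by CPM, with log2 values of 2.18 with the offset and 0.84 without it. ROBO2 lengths in RPMI-8226 rest on 61 and 47 reads. The deposited length of ROBO1 was also lower in RPMI-8226, at 1425 and 1929 bases against 6995 and 3715 in RPMI-8226-R. Those ROBO1 lengths rest on 18 to 37 reads per library.

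**Figure D2:**
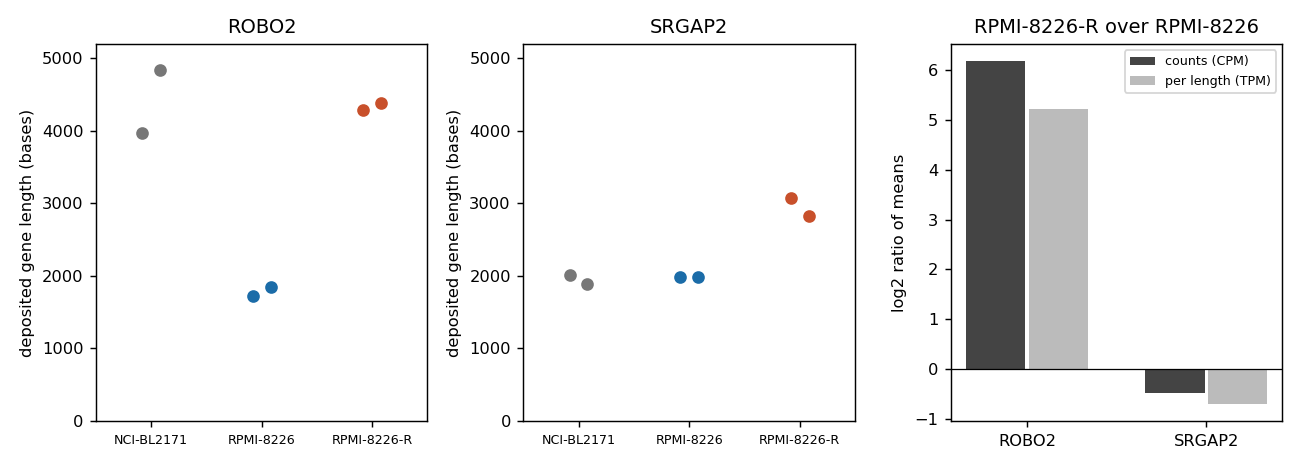
Deposited gene length in bases of ROBO2 (left) and SRGAP2 (middle) in each library (points, 2 per line), and the log2 ratio of mean levels in RPMI-8226-R over RPMI-8226 by counts (CPM) and per length (TPM) for both genes (right, bars from 0, no error drawn). ROBO2 is shortest in RPMI-8226, at 1726 and 1847 bases, and SRGAP2 is longest in RPMI-8226-R, at 3072 and 2823 bases.

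Among the adaptors, SRGAP2 was the only well-read member. SRGAP2 (ENSG00000266028.8, chromosome 1, 206203345 to 206464443, plus strand), a membrane-bending GTPase activator known for its part in spine and neurite growth, had 1835 and 1703 reads in NCI-BL2171, 2613 and 2517 in RPMI-8226, and 1820 and 2139 in RPMI-8226-R. Its TPM was 34.3 and 38.5, 44.3 and 43.8, and 23.8 and 30.6 in the same order. RPMI-8226 was highest on both scales. RPMI-8226-R overlapped NCI-BL2171 in normalised counts and was below it in TPM.

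The log2 fold change of SRGAP2 counts was 0.53 ± 0.07 in RPMI-8226 against NCI-BL2171 (edgeR adjusted p of 8.0e-07), but on log2(TPM + 1) and log2(TPM + 0.1) it was 0.27 and 0.28 with limma adjusted p of 0.104 and 0.109. RPMI-8226-R against NCI-BL2171 gave 0.06 ± 0.07 by counts (edgeR adjusted p of 0.458) and the other sign per length, -0.55 with an offset for effective length (edgeR adjusted p of 0.00115). The deposited SRGAP2 length was 3072 and 2823 bases in RPMI-8226-R against 1888 to 2011 in the 4 other libraries. As a description, SRGAP2 in RPMI-8226-R against RPMI-8226 stood at -0.47 ± 0.07 by counts and at -1.03 with the length offset.

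The copies of SRGAP2 were read in every library. SRGAP2B had 567 and 509 reads in NCI-BL2171, 804 and 811 in RPMI-8226, and 468 and 508 in RPMI-8226-R. SRGAP2C, a human-specific copy that makes a truncated protein, had 833 and 770, then 878 and 832, then 394 and 498. SRGAP2D, the shortest copy, had 84 and 55, then 142 and 111, then 90 and 80. In RPMI-8226-R against RPMI-8226 the log2 fold changes of counts were -0.82 ± 0.10, -1.04 ± 0.10 and -0.66 ± 0.24 in that order, the same sign as SRGAP2. SRGAP2 itself held 65.7% and 66.3% of the reads of the 4 genes in RPMI-8226-R, 58.9% in both RPMI-8226 libraries, and 55.3% and 56.1% in NCI-BL2171. The sum of the 4 genes, which does not depend on how reads were split among them, was 103 and 112 CPM in RPMI-8226-R, 165 and 169 in RPMI-8226, and 122 in both NCI-BL2171 libraries. RPMI-8226 was again highest, and RPMI-8226-R was lowest.

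SRGAP3 (ENSG00000196220.17, chromosome 3, 8980591 to 9363053, minus strand), a neuronal relative of SRGAP2, had 0 and 6 reads in NCI-BL2171, 19 and 26 in RPMI-8226, and 7 and 0 in RPMI-8226-R. In normalised counts RPMI-8226 was above the other lines, which overlapped, while in TPM all 3 lines overlapped. SRGAP3 passed the filter through RPMI-8226 alone, so its tests here add little to the reads themselves. The log2 fold change of its counts in RPMI-8226 against NCI-BL2171 was 2.85 ± 0.97 (edgeR adjusted p of 0.0157). That call was lost with DESeq2 (adjusted p of 0.0824), with the effective-length offset (0.182), with limma on log2(TPM + 1) and log2(TPM + 0.1) (0.193 and 0.240), without NCI-BL2171 replicate 1 (0.136) and without RPMI-8226 replicate 2 (0.0946). Without NCI-BL2171 replicate 2 the log2 value was 7.55. RPMI-8226-R against NCI-BL2171 gave 0.12 ± 1.26 (edgeR adjusted p of 0.943), and the sign of this value depended on which library was left out. SRGAP1 (ENSG00000196935.10, chromosome 12, 63844293 to 64162221, plus strand), the adaptor first tied to ROBO1 signalling and CDC42, did not pass the filter. It had 7 and 11 reads in NCI-BL2171, 8 and 7 in RPMI-8226, and 2 and 0 in RPMI-8226-R. Its 2 reads in RPMI-8226-R were below both other lines, and NCI-BL2171 and RPMI-8226 overlapped in normalised counts.

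Ordered by mean TPM, ROBO2 (39.7 ± 2.61) and SRGAP2 (27.2 ± 4.77) led in RPMI-8226-R without overlap, and the 7 other genes were at most 0.276 TPM. In RPMI-8226 the order was SRGAP2 (44.0 ± 0.373), ROBO2 (1.06 ± 0.222), SRGAP3 (0.829 ± 0.622) and ROBO1 (0.693 ± 0.308), the last 3 of which overlapped. In NCI-BL2171 SRGAP2 (36.4 ± 2.97) was followed by SLIT2 (1.27 ± 0.0707) and ROBO3 (0.631 ± 0.0643), with no overlap among these, and then by SRGAP1, ROBO2 and SRGAP3, whose ranges overlapped.

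Counted over the 7 tested genes, 1 was higher and 3 were lower in RPMI-8226-R than in RPMI-8226 at an adjusted p under 0.05. Over all tested genes 28.5% were higher and 37.2% lower. This comparison was used to choose the genes, so nothing is read from the count. In RPMI-8226 against NCI-BL2171, among the 6 tested genes other than ROBO2, SLIT3, ROBO1, SRGAP2 and SRGAP3 were called higher and SLIT2 and ROBO3 lower, where 41.1% and 35.6% of all tested genes were. In RPMI-8226-R against NCI-BL2171, ROBO1 was called higher and SLIT2 and ROBO3 lower, beside 39.2% and 38.2% of all tested genes. SLIT2, SLIT3, ROBO1, ROBO3 and SRGAP3 passed the filter only through the lines in which they are high. Neither these counts nor the tests of those 5 genes against NCI-BL2171 are support for a difference, and their values are best read as a description. The 3 comparisons share libraries. The median log2 fold change over the 7 genes was -1.25, 0.84 and 0.12 in the 3 comparisons, beside -0.12, 0.09 and 0.00 over all tested genes.

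**Figure D3:**
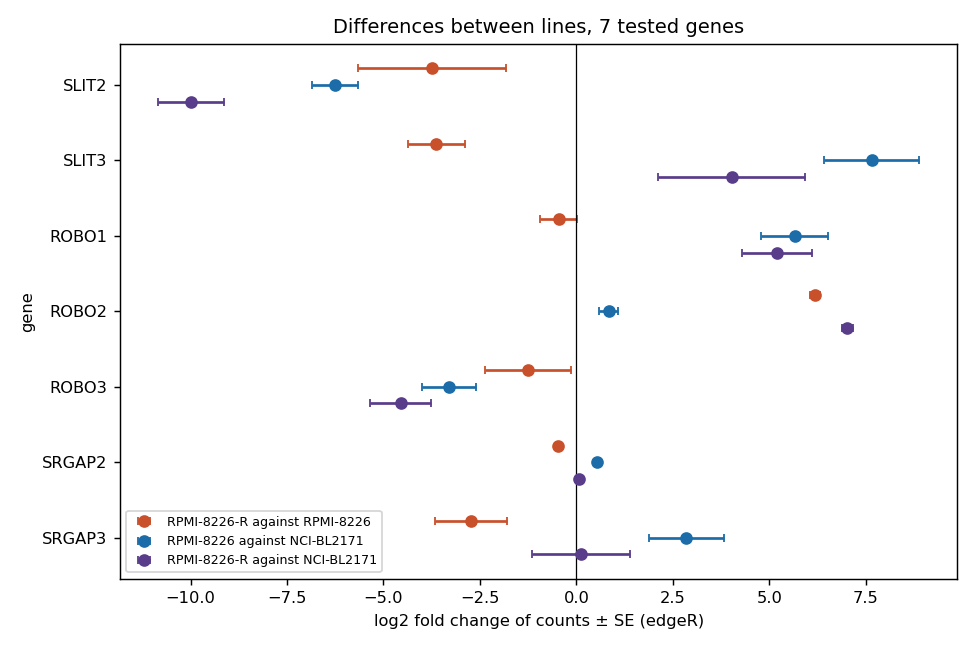
Log2 fold change of counts (x axis, points with SE, edgeR) for the 7 tested genes (y axis) in the 3 comparisons between lines, each fitted over all 6 libraries. ROBO2 is at 6.18 against RPMI-8226 and 7.02 against NCI-BL2171 in the resistant line, and at 0.84 between those 2 lines, and SRGAP2 stays within 0.53 of 0.

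The other genes of the pathway were counted from lists of 58 genes, 51 of which were tested. In RPMI-8226-R against RPMI-8226, 20 were higher and 28 lower by edgeR, with a median log2 fold change of -0.28, beside -0.12 over all tested genes. The TPM scale lies 0.36 higher (log2, median over genes) than the count scale in this comparison, and on log2(TPM + 1) the same genes gave 21 higher and 15 lower. Over all genes the calls were 5716 higher and 7461 lower by counts, and 7062 and 4584 on log2(TPM + 1). Of the 48 called genes, 7 had the other sign in the ratio of mean TPM, so no direction is given for them. They were NEO1, VASP, CAP1, RAC1, RHOA, PFN1 and ADAM10, chosen for naming after their values were seen. With the effective-length offset only NEO1 changed sign (log2 0.06), and the others kept their sign by counts. The scales were 0.22 and 0.14 apart, in opposite directions, in the 2 comparisons with NCI-BL2171.

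Receptors, co-receptors and other ligands held the largest differences between the RPMI lines. Of the 16 tested among 21, 5 were higher and 11 lower in RPMI-8226-R, with a median of -1.28; over all tested genes 28.5% were higher and 37.2% lower, with the median of -0.12. SDC4, a heparan sulfate proteoglycan of the cell surface, fell from 27.4 ± 1.95 to 0.0359 ± 0.00173 CPM (log2 -9.40 ± 0.29, edgeR adjusted p of 1.4e-16). RPMI-8226-R held 2 SDC4 reads in total, against 1428 in RPMI-8226 and 792 in NCI-BL2171. SDC4 passed the filter through those other lines, so its test adds little to the reads themselves. The netrin receptor DCC, which ROBO receptors can silence, fell from 5.59 ± 0.540 to 0.0346 ± 0.0490 CPM, and FLRT3, a membrane protein that binds ROBO1, from 5.04 ± 0.866 to 0.0185 ± 0.0262 CPM. SDC2, another such proteoglycan, rose from 0.380 ± 0.146 to 2.36 ± 0.0378 CPM (log2 2.61 ± 0.44), but with the effective-length offset it stood at 1.92 and the call was lost (edgeR adjusted p of 0.0887). DCC differed 161-fold by CPM and 316-fold by TPM.

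CXCR4, the chemokine receptor whose signalling SLIT can dampen in white blood cells, was at 310 ± 13.2 CPM in RPMI-8226 and 112 ± 6.93 CPM in RPMI-8226-R (log2 -1.47 ± 0.07, edgeR adjusted p of 1.2e-13). NCI-BL2171 held 0.380 ± 0.138 CPM. Its ligand CXCL12 had no read in NCI-BL2171 and stood at 131 ± 3.78 CPM in RPMI-8226 and 95.2 ± 2.37 CPM in RPMI-8226-R, at least 1131-fold and 824-fold above the floor of NCI-BL2171. ROBO4, the receptor of blood vessel cells, had no read in any library. Against NCI-BL2171, 12 of these 16 genes were higher and 3 lower in RPMI-8226, and 9 higher and 3 lower in RPMI-8226-R, with medians of 5.02 and 2.60. Of all tested genes, 41.1% were higher and 35.6% lower in the first comparison and 39.2% and 38.2% in the second, with medians of 0.09 and 0.00. The netrin receptor NEO1 was among those higher in RPMI-8226-R (46.6 ± 2.48 against 0.988 ± 0.315 CPM), and MET, the receptor of hepatocyte growth factor, among those lower (0.0730 ± 0.0542 against 2.19 ± 0.0356 CPM). The NEO1 ratio was 47.2 by CPM and 116 by TPM. SDC3 was lower in RPMI-8226 than in NCI-BL2171 (8.36 ± 0.532 against 74.3 ± 0.675 CPM).

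The cytoplasmic partners and GTPases went both ways. Of the 28 tested among 29, 13 were higher and 14 lower in RPMI-8226-R against RPMI-8226, with a median of -0.11. Beside these, 28.5% of all tested genes were higher and 37.2% lower, with a median of -0.12. CAP2, an actin-binding protein, rose from 0.717 ± 0.383 to 4.72 ± 0.456 CPM (log2 2.72 ± 0.37), and ARHGAP39, a GTPase activator known to bind ROBO, from 2.96 ± 0.658 to 7.95 ± 0.857 CPM (log2 1.42 ± 0.20). The ABL kinases, which phosphorylate ROBO, rose: ABL2 from 18.2 ± 1.11 to 44.8 ± 3.36 CPM and ABL1 from 55.6 ± 1.12 to 96.8 ± 3.46 CPM (edgeR adjusted p of 1.9e-10 and 1.3e-09). The actin regulator PFN2 fell from 11.6 ± 0.0129 to 0.703 ± 0.161 CPM. By TPM the ratio was 4.14 for ARHGAP39 and 10.6 for PFN2, against 2.69 and 16.5 by CPM.

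The small GTPases RAC2 and CDC42, which drive actin protrusion and of which CDC42 is a target of SRGAP1, were lower in RPMI-8226-R than in RPMI-8226. RAC2 went from 286 ± 0.00034 to 105 ± 0.870 CPM (log2 -1.45 ± 0.07) and CDC42 from 306 ± 12.9 to 202 ± 9.16 CPM (log2 -0.60 ± 0.06). By TPM the ratio of RPMI-8226 to RPMI-8226-R was 2.19 for RAC2 and only 1.16 for CDC42, against 2.73 and 1.51 by CPM. Against NCI-BL2171, 13 of the 28 were higher and 12 lower in RPMI-8226, and 11 higher and 14 lower in RPMI-8226-R. Of all tested genes, 41.1% were higher and 35.6% lower in the first comparison, and 39.2% and 38.2% in the second. EVL, which links receptors to actin filaments, was the largest fall in both: 20.2 ± 2.20 CPM in NCI-BL2171, 0.207 ± 0.181 in RPMI-8226 and 0.0371 ± 0.0525 in RPMI-8226-R. The kinase PRKCA followed the same order at 51.1 ± 3.34, 2.23 ± 0.259 and 0.361 ± 0.119 CPM, its ratio of NCI-BL2171 to RPMI-8226-R being 141 by CPM and 92.9 by TPM. RAC3 was at 102 ± 6.16 CPM in NCI-BL2171 and 27.5 ± 1.41 CPM in RPMI-8226.

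Of the 7 tested genes of receptor turnover and regulation, 2 were higher and 3 lower in RPMI-8226-R against RPMI-8226, with a median of 0.08. Beside these, 28.5% of all tested genes were higher and 37.2% lower, with a median of -0.12. USP33, the deubiquitinase that keeps ROBO1 at the cell surface, was at 34.8 ± 0.644 CPM against 20.7 ± 0.545 CPM (log2 0.75 ± 0.08, edgeR adjusted p of 1.1e-07), and at 74.0 ± 0.878 CPM in NCI-BL2171. With the effective-length offset the USP33 log2 value between the RPMI lines was 0.36 (edgeR adjusted p of 0.0330). The ratio was 1.61 by TPM and 1.68 by CPM. Both comparisons with NCI-BL2171 had 2 higher genes, with 2 lower in RPMI-8226 and 3 lower in RPMI-8226-R. Of all tested genes, 41.1% were higher and 35.6% lower in RPMI-8226, and 39.2% and 38.2% in RPMI-8226-R.

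**Figure D4:**
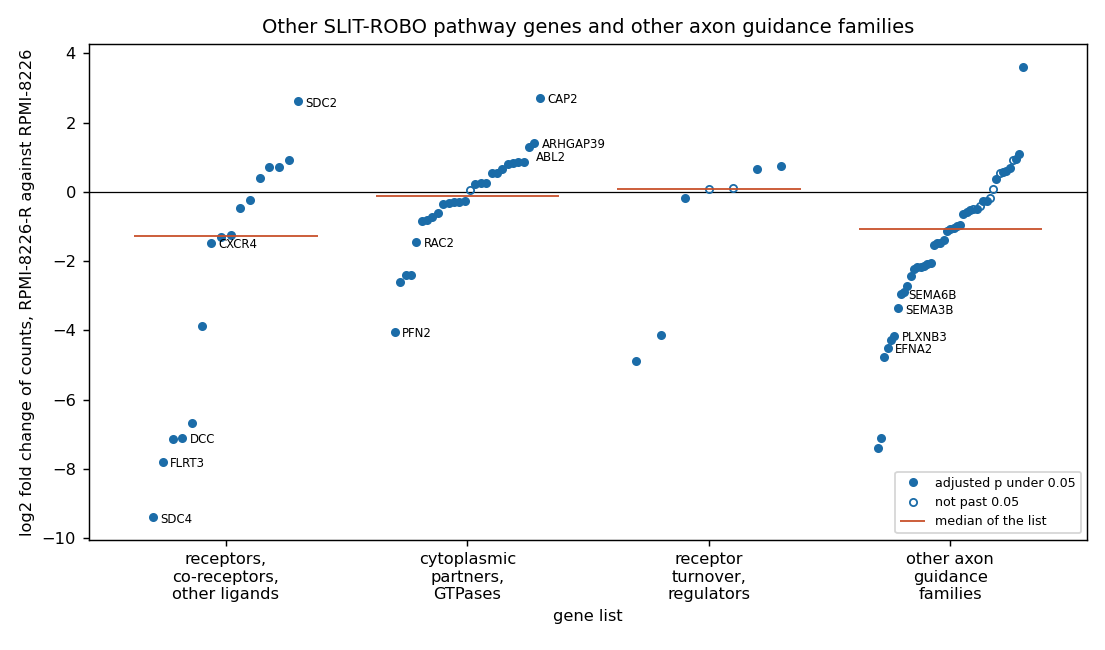
Log2 fold change of counts in RPMI-8226-R against RPMI-8226 (y axis, edgeR) for every tested gene of 3 lists of other pathway genes and of the other axon guidance families (x axis; filled points are past an adjusted p of 0.05, red lines are list medians). The lowest point is SDC4 at -9.40, and the medians are -1.28, -0.11, 0.08 and -1.06 from left to right.

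The other axon guidance families (further netrin receptors, semaphorins, plexins, ephrins and their receptors; 45 tested of 60) had 7 genes higher and 32 lower in RPMI-8226-R than in RPMI-8226, with a median of -1.06, beside 28.5% higher, 37.2% lower and a median of -0.12 over all tested genes. On log2(TPM + 1) 7 were higher and 17 lower (limma), and with the effective-length offset 4 and 28 (edgeR), where the median was -1.03. The largest falls among genes of at least 1 TPM were those of the ephrin EFNA2 (16.8 ± 0.269 to 0.731 ± 0.142 CPM), the plexin PLXNB3 (6.15 ± 0.131 to 0.332 ± 0.364 CPM), and the semaphorins SEMA3B (4.64 ± 0.639 to 0.443 ± 0.207 CPM) and SEMA6B (27.2 ± 1.39 to 3.55 ± 0.754 CPM). The largest rises were smaller: SEMA3G (4.19 ± 0.333 to 9.02 ± 0.907 CPM), SEMA4D (16.8 ± 1.27 to 32.6 ± 0.0293 CPM), SEMA4B (54.9 ± 2.86 to 89.1 ± 5.09 CPM) and PLXNA2 (23.5 ± 0.990 to 35.4 ± 1.68 CPM). With the effective-length offset the calls of SEMA4D and PLXNA2 were lost (log2 0.20 and 0.38, edgeR adjusted p of 0.376 and 0.340). Of the 39 called genes, 1 (EPHB4, named after its value was seen) had the other sign in the ratio of mean TPM. With the effective-length offset EPHB4 kept its sign by counts (log2 -0.30 against -0.26). Against NCI-BL2171, 31 were higher and 8 lower in RPMI-8226, with a median of 2.79, and 23 were higher and 16 lower in RPMI-8226-R, with a median of 0.31. Of all tested genes, 41.1% were higher and 35.6% lower in the first of these comparisons and 39.2% and 38.2% in the second. Their medians there were 0.09 and 0.00. NRP2, a co-receptor of semaphorins, had no read in NCI-BL2171 and stood at 107 ± 3.05 CPM in RPMI-8226 and 52.1 ± 2.07 CPM in RPMI-8226-R. SEMA4C stood at 112 ± 0.680 CPM in NCI-BL2171 and 17.5 ± 0.271 CPM in RPMI-8226.

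None of the tested protein-coding neighbours of ROBO2 on chromosome 3 rose as far as ROBO2 in RPMI-8226-R. Within 5 Mb (megabases) of ROBO2 and ROBO1 lie 15 other protein-coding genes, of which 11 were tested. In RPMI-8226-R against RPMI-8226, 2 of the 11 were higher and 7 lower by edgeR, with log2 fold changes from -9.50 to 1.27. Of all tested genes, 28.5% were higher and 37.2% lower in the same comparison, so calls were common everywhere. Distances here are between the lower coordinates of the genes. FRG2C and ZNF717 lie 0.24 and 0.23 Mb before ROBO2. FRG2C had 24 and 48 reads in RPMI-8226 and none in RPMI-8226-R, and ZNF717 had 268 and 257 against 205 and 224, a log2 difference of -0.39 that is close to the 0.36 between the scales. CNTN3, at 1.64 Mb before ROBO2, had no read in any library. The transcribed pseudogene FAM86DP, 0.49 Mb before ROBO2 and named after its value was seen, had 126 and 126 reads in RPMI-8226 against 486 and 585 in RPMI-8226-R (log2 1.99 ± 0.15, edgeR adjusted p of 3.2e-10).

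Beyond ROBO1, GBE1, the glycogen branching enzyme, lies 5.58 Mb after ROBO2. It had 7806 and 7117 reads in RPMI-8226 against 1663 and 1923 in RPMI-8226-R (log2 -2.15 ± 0.07). On the other side, PPP4R2, a phosphatase subunit, was at 77.9 ± 0.123 and 76.8 ± 4.17 CPM, and EBLN2 was at 0.308 ± 0.0675 and 0.369 ± 0.312 CPM. GXYLT2, a glycosyltransferase of Notch, had 83 and 94 reads in RPMI-8226 and none in RPMI-8226-R. The RNA-protein assembly factor SHQ1 (log2 1.11 ± 0.14) and the transcription factor FOXP1 (log2 1.27 ± 0.13) were the 2 that rose, and RYBP (-1.81 ± 0.08), EIF4E3 (-1.42 ± 0.13) and a gene without a symbol that overlaps FOXP1 (-1.49 ± 0.54) fell. Within the span of ROBO2 itself, the processed pseudogene CAP1P1 had 1022 and 1007 reads in RPMI-8226 and 880 and 999 in RPMI-8226-R, and VDAC1P7 had 34 and 22 against 24 and 31, so neither showed the ROBO2 difference. Whether reads counted on such pseudogenes came from their parent genes was not tested.

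**Figure D5:**
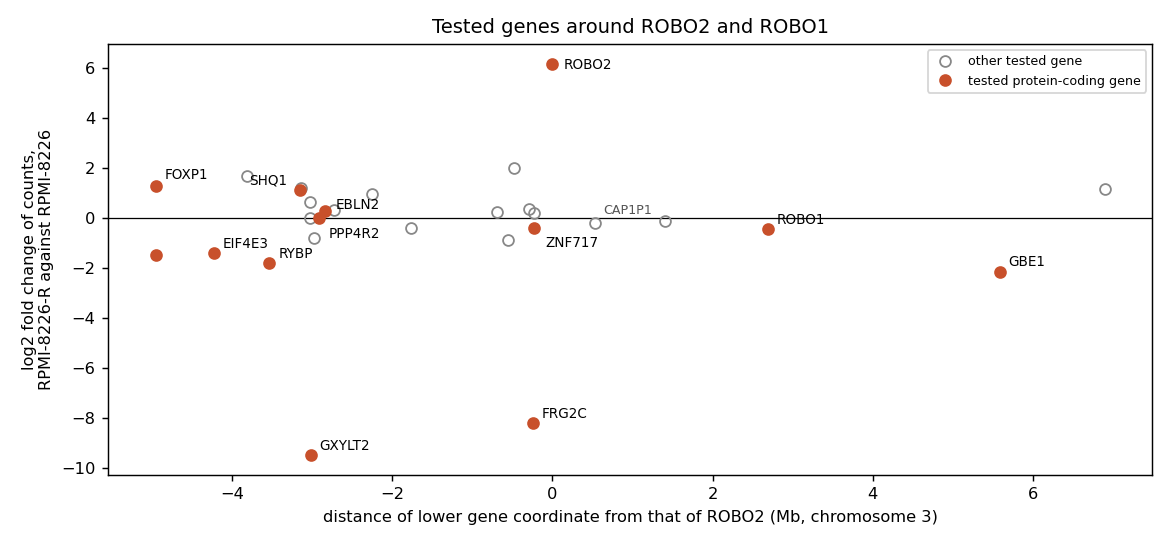
Log2 fold change of counts in RPMI-8226-R against RPMI-8226 (y axis, edgeR) against the distance of each gene's lower coordinate from that of ROBO2 in Mb (x axis) for tested genes around ROBO2 and ROBO1; filled points are protein-coding. ROBO2 is at 6.18, the pseudogene FAM86DP at 1.99, and the other protein-coding genes lie between -9.50 and 1.27.

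The genes whose pattern was most like that of ROBO2 were sought among 13934 tested protein-coding genes, by the root mean square difference over the 6 libraries between mean-centred log2(CPM + 0.5) values. The 5 nearest were RAI2 (0.649), CHST4 (0.711), GPC6 (0.797), DMRT1 (0.833) and DMRT3 (0.847), and 9 genes in all lay within 1. RAI2 (chromosome X) had 14 and 18 reads in RPMI-8226 and 599 and 701 in RPMI-8226-R, with none in NCI-BL2171. CHST4 (chromosome 16), a sulfotransferase, had 14 and 13 against 490 and 588, again with none in NCI-BL2171. GPC6 (chromosome 13), a heparan sulfate proteoglycan, had 4 and 3 reads in NCI-BL2171, 19 and 28 in RPMI-8226 and 613 and 699 in RPMI-8226-R. DMRT1 and DMRT3, transcription factors that neighbour each other on chromosome 9, had 20 and 21 and 17 and 16 reads in RPMI-8226 against 558 and 512 and 482 and 455 in RPMI-8226-R. None of the 5 reached the ROBO2 level: RAI2 stood at 11.6 ± 1.40 TPM and CHST4 at 11.8 ± 1.56 TPM in RPMI-8226-R, against 39.7 ± 2.61 TPM for ROBO2. These genes were picked for their likeness over 6 libraries of 3 lines, so the likeness is a description.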

How the data were processed

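Untreated cells of the 3 lines gave 2 total RNA libraries each, depleted of ribosomal RNA, per the labels. The authors deposited for each library and gene an estimated count of reads, a TPM level, a length and an effective length, per the file headers. Lengths are another deposited unit, in bases. The submitters' processing notes name GRCh38.p13 as the build. Which quantifier and annotation were used, and whether strand was used, is not given in the sources used here. Positions and transcripts come from GENCODE 29 (GRCh38), and windows before gene starts and the microRNA from RefSeq (GRCh38.p14).

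Each table held 61544 rows, and 46 pseudoautosomal Y copies were added to their X copies. Estimated counts were rounded and tested in R 4.3.3 with edgeR 4.0.16 (normalised by TMM, filterByExpr by line with a minimum count of 10 and total of 15, robust quasi-likelihood F test, two-sided, all 6 libraries, 3 residual degrees of freedom, Benjamini-Hochberg adjustment over 20081 genes, threshold 0.05). CPM values are TMM-scaled. Libraries of a line were not copies of each other (chi-square per gene 3.47 to 11.0). The procedure was tested on simulated data. Alternatives were DESeq2 1.42.0, no filter, limma 3.58.1 trend on log2(TPM + 1) and log2(TPM + 0.1), an effective-length offset, a replicate block, 2 lines alone, and each library left out. Coding sequences were aligned with Biopython.

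The genes, lists and tests were chosen with earlier results of these data known. Of the lists, up to 4 rises and 4 falls per comparison past the threshold with at least 1 TPM in the higher line could be named, with CXCR4, ROBO4, ABL1, USP33, RAC2 and CDC42 whatever their change. The 5 genes most like ROBO2 and protein-coding neighbours within 5 Mb (megabases) were also named. Y-linked genes and antigen receptor segments were not.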

Additional observations from a re-analysis of the deposited data

How the results depend on the processing

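Of 72 alternative total counts of called genes, called pathway genes and called genes of the other axon guidance families, 71 stayed within 1.5 times the reported totals; those of the axon guidance families were added after the data were seen, and in RPMI-8226-R against RPMI-8226 their total went from 39 to 24 on log2(TPM + 1). Totals hide the split: on that scale lower calls in that comparison went from 7461 to 4584 over all genes and from 28 to 15 among pathway genes. Of 226 alternative values for the 7 tested genes, 196 kept their direction and their side of the threshold, 19 lost a call, 5 gained one and 6 reversed, and 15 of the 30 changes were of SRGAP3. These values include those of ROBO2 and of the comparison used to choose the genes, which carry no test. They also include SLIT2, SLIT3, ROBO1, ROBO3 and SRGAP3, which passed the filter only through the lines in which they are high. The tally describes how values moved with the processing and is not support for a difference. SRGAP2 in RPMI-8226-R against NCI-BL2171 reversed to -0.42 on log2(TPM + 1), -0.43 on log2(TPM + 0.1) and -0.55 with the effective-length offset. With each library left out in turn, SRGAP3 in that comparison ran from -4.69 to 4.83, and ROBO3 in RPMI-8226-R against RPMI-8226 from -4.86 to 0.40. Leaving a line with 1 library assumes that it varies like the others. Leaving out RPMI-8226 replicate 2 gave no SLIT2 value between the RPMI lines, where no read remained. The replicate numbers did not pair the libraries: deviations of same-numbered libraries correlated at 0.043, 0.044 and 0.028. With the numbers as a replicate block, 13045, 15295 and 15426 genes were called in place of 13177, 15401 and 15540, and ROBO2 stood at 6.17 in RPMI-8226-R against RPMI-8226. Depth limits SLIT1, SLIT3, ROBO1, ROBO3, SRGAP1 and SRGAP3, none of which had more than 37 reads in any library.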
